A study of Arabidopsis thaliana with 6 samples.

Results

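Cytochrome P450 genes were examined in dark-grown seedlings of Arabidopsis thaliana that spent 6 h without oxygen, with or without sugar, or in air. Genes were chosen by symbol alone: every probe set annotated to a single gene whose symbol has the P450 form (CYP, a family number, subfamily letters and a gene number), so that cyclophilins were left out. This gave 22 genes of the 13350 that a probe set reads alone, against 225 genes with such a symbol in the RefSeq gene table used for names. The other P450 genes are not analysed here. The rule reads symbols and no expression value, though it was set with earlier results of these data known.

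The groups were anoxia with 90 mM sucrose, anoxia without sugar, and air without sugar. All seedlings were of the ecotype Columbia glabra, had been raised for 4 days in darkness at 23 °C on medium to which no sucrose was added, and received their treatment for 6 h. Each group had 2 Affymetrix microarrays, from experiments 1 and 2, and each microarray carried RNA pooled from 4 seedling cultures, so that n = 2 counts independent experiments. Whole seedlings were used, and in such bulk RNA fewer cells of a type and less RNA per cell cannot be told apart.

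Cytochrome P450 enzymes hold a haem iron. Most of them bind molecular oxygen there, insert 1 of its atoms into the substrate and reduce the other to water with electrons from NADPH. Plants use them to make lignin precursors, sterols, glucosinolates, phytoalexins and several hormones, and to break hormones down. Reactions of this type consume oxygen. The CYP71B subfamily is one of the largest in Arabidopsis and lies partly in tandem runs of neighbouring genes. Its best known member, CYP71B15 (PAD3), makes the phytoalexin camalexin and is not analysed here.

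The 22 genes were a narrow sample of the superfamily. CYP71B supplied 18 of them, of 35 CYP71B symbols in the gene table. The other 4 were CYP84A4, CYP79A2, CYP78A9 and CYP51G2. Of the 22, 21 belong to the plant clan 71, and 2, CYP71B27 and CYP51G2, are annotated as transcribed pseudogenes. None of the listed groups of P450 genes for brassinosteroids, gibberellins, abscisic acid, jasmonate, cytokinins, strigolactones, cuticle and suberin, carotenoids or terpenes had a gene among the 22.

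Levels are given as log2(signal + 16) after each microarray was set to a median of 0, so that differences of dim genes are understated. Genes with a mean level at or above the 30th percentile of all probe sets, which was -0.84 on this scale, were tested. Of the 22 genes 10 passed (45.5%), against 64.6% of all probe sets with a single gene. CYP71B26 passed with a mean of -0.66, and CYP71B38 and CYP51G2 missed it with means of -0.89 each. No P450 gene was called in any comparison. The 12 others are described by their signals further on.

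The microarrays were not alike in brightness. Median signal ranged over the 6 from 21.2 to 50.6, and the dimmest was that of anoxia with sucrose in experiment 1. The ratio of 3' to 5' actin signal, a sign of RNA quality, was 21.6 on it and between 1.70 and 4.24 elsewhere. A signal of 0 stands at -1.22 on that microarray and at -2.06 on the sucrose microarray of experiment 2, so dim genes cannot reach equally low values on both. The part of these differences in the results was not tested. Of 5 markers of shoot and root tissue, 4 were tested and 0 passed in limma in anoxia against air. PORB, an enzyme of chlorophyll synthesis, had signals of 522.3 to 3485.8 and LHCB4.1, a light-harvesting protein, of 1498.6 to 5113.5. The root hair expansin gene EXPA7 had 2.4 to 17.8. EXPA18, of the same kind, had 20.8 and 20.1 in anoxia with sucrose, 22.1 and 2.1 under anoxia and 47.0 and 19.7 in air. As log2 levels these were -0.02 and -0.88, -0.69 and -1.41, and 0.02 and -0.39, in the same order. The log2 change for anoxia against air was -0.86 ± 0.38 (adjusted p = 0.828 by limma, 0.18 with the experiment as a block). That of FMA, a guard cell regulator named after its values were seen, was 0.41 ± 0.30. The part of such tissue differences in the results was not tested.

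CYP71B6 is known in Arabidopsis to turn indole-3-acetonitrile, a breakdown product of the indole pathway, into indole aldehyde and acid. Its level was 2.31 and 1.71 in anoxia with sucrose (experiments 1 and 2), 2.32 and 2.00 under anoxia, and 1.89 and 1.63 in air. Both anoxia values lay above both air values, while the sucrose values overlapped with those of either group. The log2 change was 0.40 ± 0.46 (SE) for anoxia against air, with changes of 0.42 and 0.37 in experiments 1 and 2 (adjusted p = 1 by limma). With sucrose against anoxia it was -0.15 ± 0.46, and against air 0.25 ± 0.46.

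CYP84A4, which in Arabidopsis serves the arabidopyrones, a side branch of phenylpropanoid metabolism, had levels of 0.20 and -0.43 in anoxia with sucrose. They were -0.45 and -0.38 under anoxia and -0.27 and -0.07 in air. Both anoxia values lay below both air values, at a log2 change of -0.24 ± 0.32 (-0.18 and -0.31 by experiment, adjusted p = 1 by limma). The 2 sucrose values lay 1 above all others and 1 among the lowest. The higher was that of the dim microarray, and the change with sucrose against anoxia was 0.64 in experiment 1 and -0.05 in experiment 2 (0.30 ± 0.32).

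**Figure D1:**
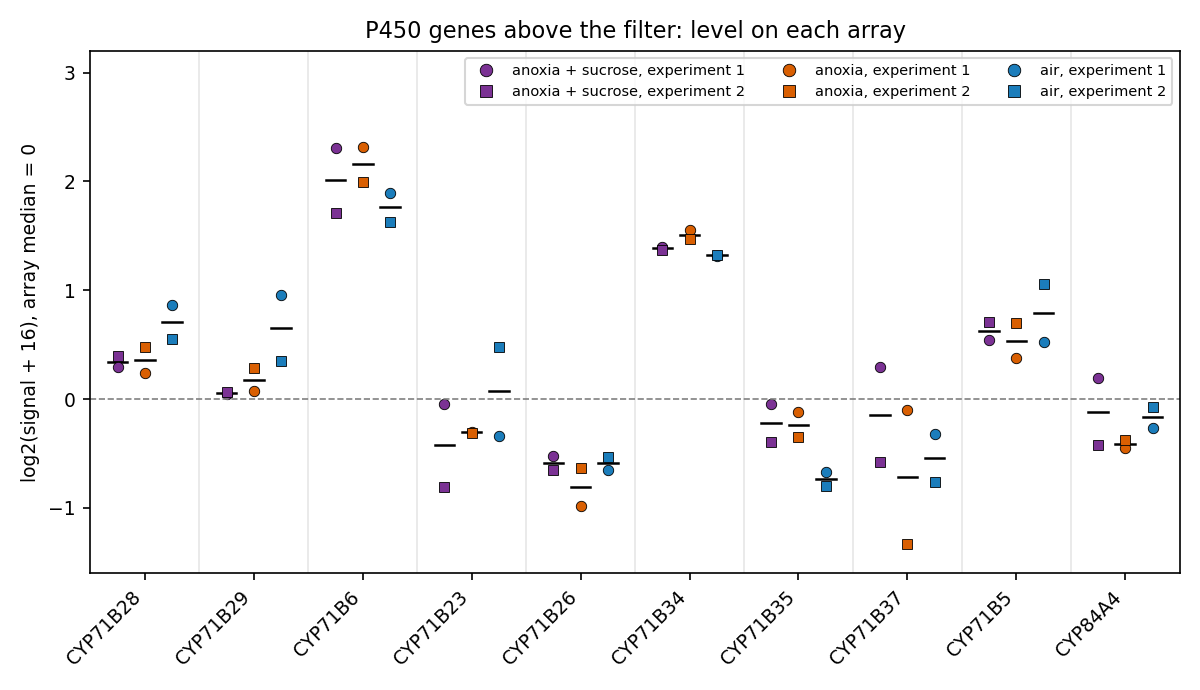
Level of the 10 tested P450 genes on each microarray, as log2(signal + 16) with the array median at 0 (vertical axis), in chromosome order. Points are single microarrays (circle, experiment 1; square, experiment 2) and bars are means of 2. CYP71B34 lies between 1.31 and 1.55 on all 6, and the 2 air values of CYP71B35 lie below its other 4.

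CYP71B28 and CYP71B29 are adjacent genes on chromosome 1, next in line after CYP71B27 and CYP71B2. CYP71B28 had levels of 0.30 and 0.39 in anoxia with sucrose, 0.24 and 0.47 under anoxia, and 0.86 and 0.55 in air. CYP71B29 had 0.05 and 0.07 in anoxia with sucrose, 0.07 and 0.28 under anoxia, and 0.96 and 0.35 in air. In both genes the 2 air values were the highest of the 6, and the air value of experiment 1 stood above that of experiment 2.

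For anoxia against air, CYP71B28 was at -0.35 ± 0.33 and CYP71B29 at -0.48 ± 0.34. Experiment 1 gave most of this: the changes were -0.62 and -0.07 for CYP71B28 and -0.89 and -0.07 for CYP71B29 (experiments 1 and 2). Without the air microarray of experiment 1 the change of CYP71B29 was -0.18 and that of CYP71B28 -0.19. With sucrose against air CYP71B29 was at -0.60 ± 0.34, with a 95% interval of -1.36 to 0.16 (unadjusted p = 0.108, adjusted p = 0.864 by limma). With the experiment number as a block that adjusted p was 0.384, the smallest of the 10 genes over the 3 comparisons, with or without the block. Whether the probes of either gene also read the other's transcripts was not tested, here or for the other CYP71B neighbours.

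The cluster on chromosome 3 held 11 of the 22 genes in a stretch of neighbouring loci from CYP71B16 to CYP71B37, broken by other CYP71B genes and, between CYP71B24 and CYP71B25, by 6 genes without a P450 symbol. Of the 11, CYP71B23, CYP71B26, CYP71B34, CYP71B35 and CYP71B37 were tested. CYP71B36, which was not tested, lies directly between CYP71B35 and CYP71B37, which were.

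CYP71B35 was higher under anoxia than in air in both experiments, with or without sucrose. Its level was -0.04 and -0.40 in anoxia with sucrose, -0.12 and -0.34 under anoxia, and -0.67 and -0.80 in air. Both air values were the lowest of the 6. The log2 change for anoxia against air was 0.50 ± 0.30, with 0.54 and 0.45 in experiments 1 and 2 and a 95% interval of -0.16 to 1.16. It did not pass (unadjusted p = 0.123, adjusted p = 1 by limma). For sucrose against air it was 0.51 ± 0.30 (0.62 and 0.40 by experiment, adjusted p = 0.874 by limma). For sucrose against anoxia it was 0.01 ± 0.30 (0.08 and -0.05 by experiment), with an interval of -0.65 to 0.67. As signal divided by the array median, CYP71B35 under anoxia was 1.77 and 1.92 times that in air (experiments 1 and 2). These ratios rest on low signals, 40.3 and 21.8 under anoxia and 23.2 and 10.9 in air, the last below the added 16.

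CYP71B34, directly before CYP71B35, differed little between replicates. Its level was 1.40 and 1.37 in anoxia with sucrose, 1.55 and 1.47 under anoxia, and 1.31 and 1.33 in air. On this scale the groups did not overlap, and the log2 changes were small: 0.19 ± 0.39 for anoxia against air, -0.13 ± 0.39 for sucrose against anoxia, and 0.06 ± 0.39 for sucrose against air. As signal divided by the array median, CYP71B34 with sucrose was 1.07 and 0.85 times that under anoxia and 1.29 and 0.94 times that in air (experiments 1 and 2), so that its sucrose values overlapped with both other groups. Under anoxia it was 1.21 and 1.11 times that in air, without overlap. The standard errors come from limma, which draws each gene's spread towards that of genes of like brightness, and so exceed what these 6 values alone would give.

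CYP71B23 went opposite ways in the experiments. Its level was -0.04 and -0.81 in anoxia with sucrose, -0.30 and -0.31 under anoxia, and -0.34 and 0.48 in air. Sucrose against air gave 0.29 in experiment 1 and -1.29 in experiment 2 (-0.50 ± 0.38, adjusted p = 0.931 by limma). The air value of experiment 2 was the highest of the 6 and decided the difference from air. Without it, anoxia against air was at 0.03, against -0.38 ± 0.38 with it.

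CYP71B37 had the widest spread within a group among the tested genes. Signals were 29.6 and 28.5 in anoxia with sucrose, 41.0 and 3.1 under anoxia, and 33.7 and 11.6 in air. These signals are not adjusted for the brightness of each microarray. The log2 levels were 0.29 and -0.58 in anoxia with sucrose, -0.10 and -1.33 under anoxia and -0.32 and -0.76 in air. On that scale the 2 anoxia values averaged -0.72 ± 0.87 (SD, n = 2). The change was 0.57 ± 0.45 with sucrose against anoxia (0.40 and 0.75 by experiment) and -0.17 ± 0.45 for anoxia against air (0.22 and -0.57). Without the anoxia microarray of experiment 2, which read 3.1, these were -0.04 and 0.44. With a pseudocount of 1 in place of 16 they were 1.40 and -0.68. CYP71B26 was near the filter, with signals of 9.9 and 26.5 in anoxia with sucrose, 15.1 and 15.0 under anoxia, and 23.7 and 16.4 in air. Its log2 levels were -0.52 and -0.65 in anoxia with sucrose, -0.98 and -0.63 under anoxia and -0.65 and -0.53 in air. On that scale its groups overlapped in all 3 comparisons. The changes were -0.22 ± 0.29 for anoxia against air, 0.22 ± 0.29 for sucrose against anoxia and 0.00 ± 0.29 for sucrose against air. As signal divided by the array median, CYP71B26 was 0.33 and 0.47 under anoxia and 0.51 and 0.53 in air, without overlap.

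**Figure D2:**
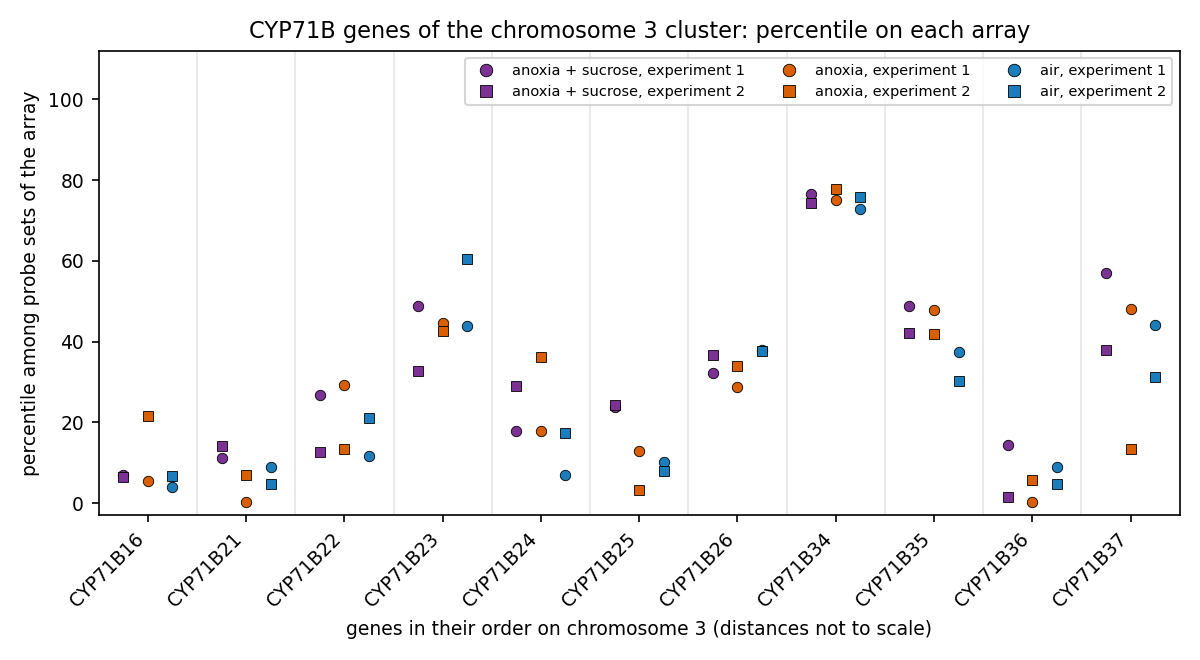
Percentile of each CYP71B gene of the chromosome 3 cluster among all probe sets of a microarray (vertical axis), with genes in chromosome order and distances not to scale. Points are single microarrays (circle, experiment 1; square, experiment 2). CYP71B34 stays between 72.8 and 77.7, while CYP71B37 spans 13.5 to 57.1. Percentiles of different genes come from different probes and are not levels to be set against each other.

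CYP71B5, on another part of chromosome 3, had levels of 0.54 and 0.71 in anoxia with sucrose, 0.37 and 0.69 under anoxia, and 0.52 and 1.05 in air. All 3 groups overlapped. The log2 change was -0.25 ± 0.36 for anoxia against air and 0.09 ± 0.36 for sucrose against anoxia.

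For the effect of oxygen loss, anoxia against air, 0 of the 10 genes passed at an adjusted p under 0.05 in limma, where 0.232% of the 15922 probe sets tested did. At an unadjusted p under 0.05 it was again 0 of 10, where 6% of all were. With the experiment number as a block 0 of 10 passed, where 2.54% of all did, and adjusted p in limma lay between 0.558 and 0.919. Unadjusted, the block gave 0 of 10, where it gave 11.8% of all. Changes of the 10 ran between -0.48 (CYP71B29) and 0.50 (CYP71B35), all within the 5th to 95th percentile of the tested probe sets, which was -0.83 to 0.75. The interquartile range of all, -0.21 to 0.33, held 2 of the 10. The median was -0.23, against 0.08 over all, with 7 genes below 0 and 3 above, where 57.5% of all probe sets were above 0. It was -0.07 without the air microarray of experiment 2, -0.08 without the filter and -0.10 with a pseudocount of 64, and reached -0.38 with a pseudocount of 1. Within experiments 1 and 2 it was -0.06 and -0.09, and CYP71B23 and CYP71B37 had changes on opposite sides of 0. In 8 of the 10 genes both experiments moved the same way, where 58.5% of all probe sets did. Groups did not overlap for 3 genes that were higher under anoxia, CYP71B6, CYP71B34 and CYP71B35 (18.9% of all probe sets), and for 3 that were lower, CYP71B28, CYP71B29 and CYP84A4 (14.9% of all). As signal over the array median these 6 did not overlap either, nor did CYP71B26, which was lower. The share of all probe sets without overlap on that scale was not computed, so the count there has nothing to be set against.

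A missed threshold does not show that transcript levels were equal. Taken gene by gene, the 95% intervals of the 10 changes reached 2.35-fold lower (CYP71B29) and 2.69-fold higher (CYP71B6) under anoxia, on the log2(signal + 16) scale. The same microarrays did carry large changes of other genes. CML38, a calmodulin-like gene of the low-oxygen response, had levels of 4.54 and 4.09 under anoxia and of -0.66 and -0.22 in air, a log2 change of 4.75 ± 0.61 (adjusted p = 0.0206 by limma). AT5G10040 was at 5.82 ± 0.70 (adjusted p = 0.0192) and AT4G10270 at 4.62 ± 0.71 (adjusted p = 0.0393). PDC2, which encodes the first enzyme of ethanol fermentation, was at 3.27 ± 0.58 and passed with the block alone (adjusted p = 0.0638 without it and 0.00038 with it).

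For the effect of sugar during anoxia, anoxia with sucrose against anoxia, 0 of 10 genes passed in limma, as did 0% of all probe sets. None of the 10 had an unadjusted p under 0.05, where 1.01% of all did. With the block 0 of 10 passed, where 0.0188% of all did, and 0 of 10 had an unadjusted p under 0.05, where 3.5% of all did. Changes ran between -0.15 (CYP71B6) and 0.57 (CYP71B37), with 5 genes above 0 and 5 below. The median was 0.00, against -0.01 over all, and 0.12 and -0.07 within experiments 1 and 2. Groups did not overlap for 2 genes that were lower with sucrose, CYP71B29 and CYP71B34 (10.2% of all), and for 0 that were higher (9.47% of all). As signal over the array median the groups of CYP71B34 overlapped, and CYP84A4 was higher without overlap. The share of all probe sets on that scale was not computed here either. In 5 of the 10 genes both experiments moved the same way, where 46.9% of all probe sets did, and 7 lay in the interquartile range of all. The 95% intervals reached 2.26-fold lower and 2.97-fold higher.

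The third comparison, of anoxia with sucrose and air, uses the microarrays of the other two again and is no separate evidence. Without a group that had sucrose in air, oxygen and sugar differ together in it and cannot be told apart. Here 0 of 10 genes passed in limma, where 0.251% of all did, and 0 had an unadjusted p under 0.05, where 6.75% of all did. With the block 0 of 10 passed, where 3.31% of all did, and 0 of 10 had an unadjusted p under 0.05, where 13.8% of all did. Changes ran between -0.60 (CYP71B29) and 0.51 (CYP71B35), with a median of 0.03 against 0.06 over all. CYP71B34 and CYP71B35 were higher without overlap (18.7% of all), and CYP71B28 and CYP71B29 lower (14.8% of all), but as signal over the array median the groups of CYP71B34 overlapped. In 6 of the 10 genes both experiments moved the same way, where 57.3% of all did, and 5 lay in the interquartile range of all. The intervals reached 2.56-fold lower and 2.63-fold higher.

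**Figure D3:**
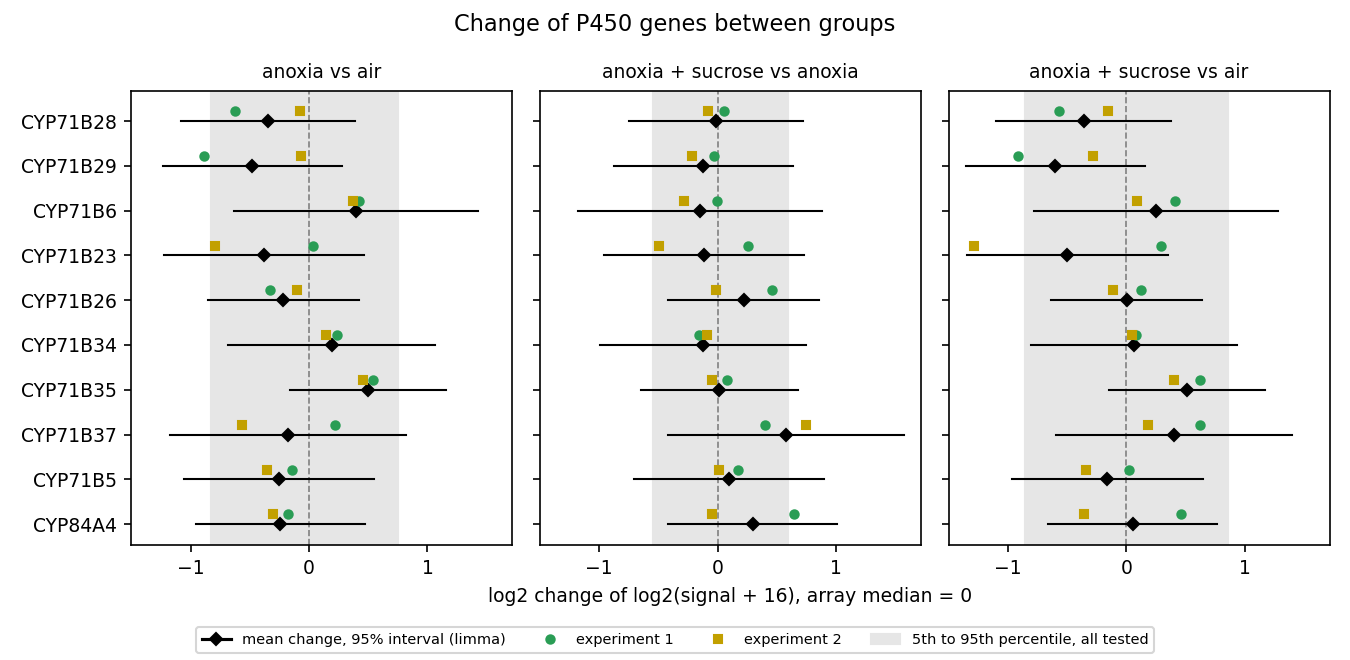
Log2 change of the 10 tested P450 genes in the 3 comparisons (horizontal axis), in chromosome order. Diamonds and lines are the change and its 95% interval from limma, the green circle and yellow square are the changes within experiments 1 and 2, and the grey band is the 5th to 95th percentile of all tested probe sets. All 30 intervals hold 0, and the 2 experiments of CYP71B23 lie on opposite sides of 0 in each panel.

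The other 12 genes had low signals. Their values ran between 0.2 and 21.3, 66 of 72 were below 16, and 9 genes were below 16 on every microarray. At such signals the added 16 outweighs the measurement, and a low signal does not show that a gene is silent. CYP79A2, which makes phenylacetaldoxime from phenylalanine for benzylglucosinolate, had 0.4 and 0.7 in anoxia with sucrose, 1.6 and 1.0 under anoxia and 3.0 and 1.6 in air. CYP78A9, known for its part in fruit and seed growth, had 4.2 and 4.1 in anoxia with sucrose, 8.5 and 2.6 under anoxia and 2.7 and 1.3 in air. CYP51G2, a pseudogene copy of the sterol demethylase gene, had 3.5 and 21 in anoxia with sucrose, 8.4 and 16.4 under anoxia and 11.4 and 17.0 in air. In none of these 3 genes were both values of a group above 16.

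Among the untested CYP71B genes, 3 are given in full and were chosen after their values were seen. CYP71B38 had 14.6 and 12.5 in anoxia with sucrose, 6.4 and 7.6 under anoxia and 15.1 and 21.3 in air, so that both anoxia values were the lowest. CYP71B24 had 4.9 and 18.3 in anoxia with sucrose, 8.1 and 16.7 under anoxia and 1.5 and 4.5 in air, where it was lowest in each experiment. CYP71B25 had 6.8 and 14.4 in anoxia with sucrose, 4.9 and 0.8 under anoxia and 2.8 and 1.3 in air, and was highest with sucrose in each experiment. With all 22 genes tested and a pseudocount of 1, the changes were -1.26 ± 0.71 for CYP71B38 and 1.76 ± 0.82 for CYP71B24 (anoxia against air), and 1.96 ± 0.73 for CYP71B25 (sucrose against anoxia). Their adjusted p in limma was 1, 0.959 and 1. In that fit, which was added after seeing the data, 0 of the 22 genes had an unadjusted p under 0.05 for anoxia against air, where 5.21% of all did. For sucrose against anoxia it was 1 (CYP71B25), where 1.99% of all did, and for sucrose against air 1 (CYP71B25), where 6.73% of all did. With the block it was 1 (CYP71B24), where 9.8% of all did, 2 (CYP71B25 and CYP71B37), where 4.25% did, and 2 (CYP71B24 and CYP71B25), where 12.8% did, in the same order of comparisons. The smallest adjusted p with the block was 0.293, for CYP71B25 with sucrose against air.

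The remaining 6 untested CYP71B genes, CYP71B16, CYP71B21, CYP71B22, CYP71B27, CYP71B31 and CYP71B36, stayed below 16 on all 6 microarrays, the highest value being 15.6 for CYP71B22 under anoxia in experiment 1. CYP71B31, CYP71B21 and CYP71B36 reached 0.2, 0.3 and 0.3 under anoxia in experiment 1, values at which ratios have no use.

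**Figure D4:**
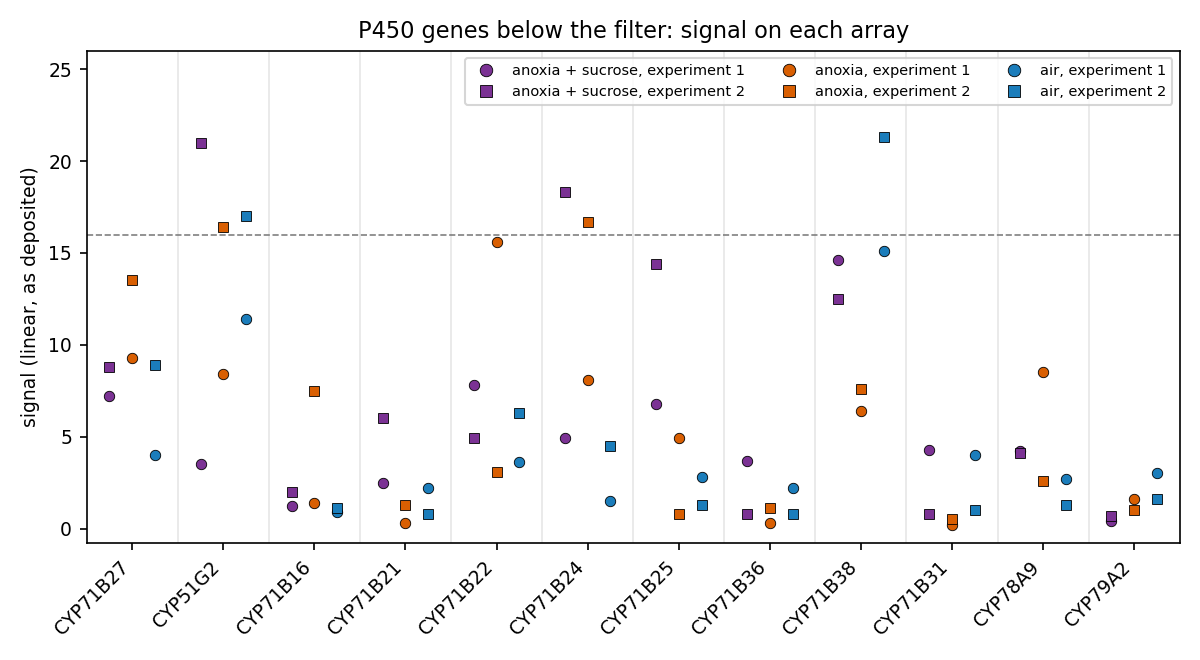
Signal of the 12 P450 genes below the filter on each microarray (vertical axis, linear, as deposited), in chromosome order. Points are single microarrays (circle, experiment 1; square, experiment 2) and the dashed line marks the added 16. Of 72 values 66 lie below the line, and CYP71B38 holds the highest, 21.3 in air in experiment 2.

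Other genes of pathways that use P450 enzymes, and redox partners, were taken from lists made for these pathways. They need not act in the same branch as any of the P450 genes analysed. Most of the listed genes have no matched probe set here. Of 6 such genes with one, 5 were tested and 0 passed in limma in any comparison, with or without the block. UGT74B1, a glucosyltransferase of glucosinolate synthesis, had levels of 0.19 and 0.74 in anoxia with sucrose, 0.56 and 0.49 under anoxia and 0.84 and 0.98 in air. Its air values were the highest of the 6, at a log2 change of -0.39 ± 0.35 for anoxia against air. UGT74C1, of the aliphatic branch, was at 0.12 ± 0.31 in that comparison and GSTU20, a glutathione transferase tied to that branch, at -0.06 ± 0.51. HCT, the acyltransferase that hands substrates to a P450 hydroxylase in lignin synthesis, was at -0.52 ± 0.51. CBR2, a reductase from the list of redox partners, was at 0.45 ± 0.49. BCAT4, an aminotransferase of methionine-derived glucosinolates, had signals of 4.7 to 14.8 and was not tested. UGT74C1 and BCAT4 were named after their values were seen.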

How the data were processed

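RNA of 6 samples was measured on Affymetrix microarrays, per the labels from about 10 ug of total RNA. The authors deposited linear intensity values, 1 per probe set; no source used here gives their software or scaling. From these values 64 control probe sets were removed, 16 was added, log2 was taken and each microarray was centred on its median. Of 22746 probe sets 15922 at or above the 30th percentile of mean level were tested. The test was limma (3.58.1, R 4.3.3), with 1 coefficient per group over all 6 microarrays, eBayes with an intensity trend (3 residual and 6.97 prior degrees of freedom), two-sided, Benjamini-Hochberg over all tested probe sets, threshold 0.05. The number of microarrays limits the precision. The p-values use the spread between 2 experiments a group, pooled over the 3 groups and drawn towards that of probe sets of like brightness. Levels are means ± SD and changes ± SE.

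Titles number the experiments, so same-numbered samples were taken as pairs. Differences between replicates correlated at r = 0.383, 0.392 and 0.562 across probe sets between groups (genes are not independent replicates). The block fit is an alternative, beside quantile or no scaling, pseudocounts of 1 and 64, other filters, no trend, fewer samples and leaving out each microarray; testing all 22 genes at a pseudocount of 1, with and without the block, and signal over the array median were added after seeing the data. The steps were tested on simulated data.

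Genes were named by the platform annotation and matched by gene number to the RefSeq table of assembly TAIR10.1, which gave names and gene order only. Named were all 10 tested P450 genes, which the rule (called, extreme, bright or in a role list) covers, and, of the other lists, called genes or else the 2 brightest; exceptions are marked. The 12 untested genes are described as members. Members and lists were chosen with earlier results of these data known.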

Additional observations from a re-analysis of the deposited data

How the results depend on the processing

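In limma, 0 P450 genes passed in each of the 3 comparisons under every alternative run, the one with all 22 genes and a pseudocount of 1 included. Among the 10 tested genes, CYP71B37 had an unadjusted p of 0.0324 for sucrose against anoxia without the anoxia microarray of experiment 1 (adjusted p = 1 by limma). With the replicate block and the 10 tested genes, the smallest adjusted p was 0.558 for anoxia against air, 0.999 for sucrose against anoxia and 0.384 for sucrose against air, so the block changed no P450 call. Leaving out a microarray leaves 1 sample in its group, assumed to vary like the others. Of 435 alternative values of single genes, 405 kept their direction and 30 turned, 21 of them by leaving out a microarray. Low signals limit the 12 untested genes.

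Calls over all probe sets moved more. For anoxia against air, 37 became 404 with the block, 23 with quantile scaling, 2 and 82 with pseudocounts of 1 and 64, 88 without a filter, 14 without the trend, 82 with only the compared microarrays, and 0 to 81 leaving out a microarray, the 0 being without either anoxia microarray (502 and 862 at an unadjusted p under 0.05). For sucrose against air, 40 became 527, 22, 14, 99, 118, 20, 17 and 0 to 71 in the same order, the 0 being without either air microarray (731 and 1033 unadjusted). For sucrose against anoxia, 0 became 3 with the block. Without scaling the median of all tested probe sets was -0.14 for sucrose against anoxia and -0.06 for sucrose against air, against -0.01 and 0.06, and the P450 median was -0.12 and -0.09.

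Other turned values follow, their cause not tested. With sucrose against anoxia, CYP71B28 was at 0.0077 with quantile scaling, CYP71B5 at -0.032 and CYP71B35 at -0.11 without scaling, and CYP71B35 at -0.0030 with a pseudocount of 64. With sucrose against air, CYP71B26 was at -0.13 with quantile scaling, -0.11 without scaling and -0.065 with a pseudocount of 1, and without scaling CYP84A4 was at -0.063 and CYP71B34 at -0.052.

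Leaving out each microarray in turn gave the following ranges that cross 0. For anoxia against air they were -0.79 to 0.44 for CYP71B37, -0.52 to 0.014 for CYP71B5 and -0.79 to 0.029 for CYP71B23. For sucrose against anoxia they were -0.069 to 0.25 for CYP71B5, -0.45 to 0.15 for CYP71B6, -0.16 to 0.19 for CYP71B35, -0.039 to 1.19 for CYP71B37, -0.13 to 0.10 for CYP71B28, -0.014 to 0.61 for CYP84A4 and -0.50 to 0.26 for CYP71B23. For sucrose against air they were -0.26 to 0.36 for CYP84A4, -0.059 to 0.067 for CYP71B26, -0.43 to 0.11 for CYP71B5, -0.039 to 0.84 for CYP71B37 and -0.049 to 0.55 for CYP71B6. Ranges that stay on 1 side of 0 but move by over 1.5 times were, for anoxia against air, -0.34 to -0.14 for CYP84A4, -0.39 to -0.042 for CYP71B26, -0.51 to -0.19 for CYP71B28, -0.78 to -0.18 for CYP71B29 and 0.24 to 0.56 for CYP71B6. For sucrose against anoxia they were 0.046 to 0.39 for CYP71B26, -0.23 to -0.017 for CYP71B29 and -0.17 to -0.082 for CYP71B34, and for sucrose against air -0.91 to -0.089 for CYP71B23, -0.52 to -0.21 for CYP71B28, -0.90 to -0.30 for CYP71B29 and 0.34 to 0.69 for CYP71B35.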

Other observations

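A probe set shared by CYP71B20 and CYP71B19, neighbours in the chromosome 3 cluster, was not among the 22 because it reads both genes. Its signals were 42.1 and 168.9 in anoxia with sucrose, 112.2 and 108.2 under anoxia, and 108 and 149.6 in air (experiments 1 and 2). The log2 change was -0.19 ± 0.46 for anoxia against air, -0.16 ± 0.46 for sucrose against anoxia and -0.35 ± 0.46 for sucrose against air, and none passed in limma (adjusted p = 1, 1 and 0.952).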
